A study of Rattus norvegicus with 3 samples.

Results

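The genes described here are 10 genes of the unfolded protein response, the program by which a cell answers an excess of misfolded protein in the endoplasmic reticulum (ER). They were Hspa5, Pdia4, Dnajb9, Sdf2l1, Herpud1, Ddit3, Atf3, Atf4, Xbp1 and Trib3, chosen by name for their known role and found on the array through the RefSeq accession of each probe. All 10 of the 10 genes were found, among 16648 genes on the array whose accessions led to 1 rat gene symbol. Each of the 10 was read by 1 probe, and every one of these probes was called well above background by the scanner software on all 3 arrays, as were all probes of 11246 of the 16648 genes, called measured genes here.

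Gene expression was measured in the cerebellar cortex of male Wistar rats aged 9 weeks, 2 days after surgery, on 1-colour microarrays that read the fluorescence intensity of Cy3-labelled RNA at each spot. The MCAO group had a transient occlusion of the right middle cerebral artery, and gave a contralateral (left) and an ipsilateral (right) cerebellar sample. The control group had a sham operation and gave a left cerebellar sample, with no right one. Each sample was the pooled tissue of 4 rats, both sides of the MCAO group came from the same rats, and there was 1 array per group, so no test was possible and the control array is shared by both comparisons with it. Damage on 1 side of the cerebrum can leave the other side of the cerebellum with less perfusion and energy use. This is crossed cerebellar diaschisis, the subject of the study. The comparisons ask how each cerebellar side differed from the control group and from the other side.

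Misfolded protein in the ER lumen is sensed by the membrane proteins IRE1, PERK and ATF6. IRE1 splices the Xbp1 messenger RNA, ATF6 is cleaved into a transcription factor, and PERK phosphorylates the translation factor eIF2 alpha, which lowers protein synthesis in general and favours translation of ATF4. The resulting transcription factors raise chaperones, oxidoreductases and degradation factors of the ER, and under lasting stress the pro-apoptotic factor CHOP; the PERK branch is well known in brain tissue after ischemia.

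The control regions of 3 genes are shown because they hold sequence elements known from this response. The 250 bases before the transcription start were taken from RefSeq promoter windows of the GRCr8 build, each of which runs from 250 bases before to 50 bases after a start, and 9 of the 10 genes had a window; Atf3 had no entry. Capitals mark motif matches, and each sequence runs 5′ to 3′ on the strand of its gene, which was the plus strand for Hspa5 (chr3:38452766-38453015) and Xbp1 (chr14:84604373-84604622) and the minus strand for Herpud1 (chr19:10614708-10614957).
Hspa5: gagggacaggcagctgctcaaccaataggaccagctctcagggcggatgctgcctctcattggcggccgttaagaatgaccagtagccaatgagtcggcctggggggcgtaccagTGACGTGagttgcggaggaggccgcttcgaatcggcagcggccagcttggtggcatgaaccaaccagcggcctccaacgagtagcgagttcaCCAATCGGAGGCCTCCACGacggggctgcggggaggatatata
Xbp1: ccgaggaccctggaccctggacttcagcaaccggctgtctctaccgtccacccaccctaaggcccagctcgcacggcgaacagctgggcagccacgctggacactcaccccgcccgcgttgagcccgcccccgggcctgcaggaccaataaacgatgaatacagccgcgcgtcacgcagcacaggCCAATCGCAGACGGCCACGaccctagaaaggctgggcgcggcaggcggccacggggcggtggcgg
Herpud1: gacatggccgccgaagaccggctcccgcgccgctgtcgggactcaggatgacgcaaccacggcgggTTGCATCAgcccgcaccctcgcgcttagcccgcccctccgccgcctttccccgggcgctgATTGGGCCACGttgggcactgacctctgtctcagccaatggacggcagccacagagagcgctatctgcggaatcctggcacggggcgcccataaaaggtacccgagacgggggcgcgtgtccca

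Both strands of all 33469 windows were searched for 5 motifs. The ER stress element, CCAAT and CCACG with 9 bases of any kind between them, was found in 22 windows (0.0657%). Hspa5 held it from 43 to 25 and Xbp1 from 65 to 47 bases before the start. The ER stress element II, ATTGG and CCACG with 1 base of any kind between them, was found in 17 windows (0.0508%), and Herpud1 held it from 124 to 114 bases before the start. Both elements end in CCACG, and ATTGG is the reverse complement of CCAAT. The core of the unfolded protein response element, TGACGTG, was in 605 windows (1.81%), with a match in Hspa5 from 135 to 129 bases before the start. The C/EBP-ATF element, TGATGCAA, was in 266 windows (0.795%), and Herpud1 held it on the opposite strand from 184 to 177 bases before the start. The cAMP response element, TGACGTCA, shares its first 6 letters with the core above and was in 612 windows (1.83%) and in 0 of the 9. These matches describe letters in the windows and not sites in use.

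**Figure D1:**
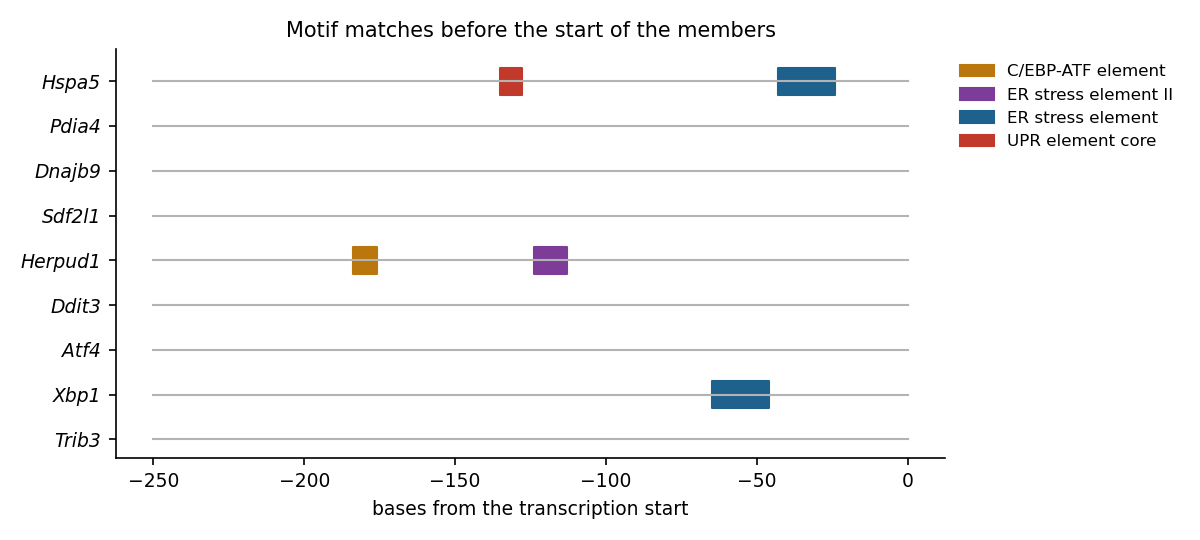
Motif matches in the 250 bases before the transcription start of the 9 genes with a RefSeq window, in bases from the start; each line is 1 gene and each block 1 match. The ER stress element lies within 65 bases of the start in Hspa5 and Xbp1, and Herpud1 holds 2 matches farther away.

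Intensities are given after scaling, which set the 75th percentile of all 3 arrays to the same value of 1994, and they can be compared between arrays for 1 gene but not between genes. The error beside a log2 ratio is that of the scanner software, which was nearly the same, about 0.20, for all but dim genes and was not reduced by the number of spots. It covers neither differences between rats nor between hybridisations. Spots of 1 probe agreed more closely, with a median SD of their log2 ratios of 0.040 contralateral to control, 0.041 ipsilateral to control and 0.038 contralateral to ipsilateral over 2258 probes. The median absolute log2 ratio of measured genes was 0.12, 0.12 and 0.080 in these comparisons.

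Markers of cerebellar cell types were read first. All 6 Purkinje cell markers and all 6 granule cell markers were measured on all 3 arrays, as were all 5 Bergmann glia and astrocyte markers. So were 11246 of the 16648 genes, among them the forebrain neuron marker Neurod6, at 1007 contralateral, 1087 ipsilateral and 1046 in the control. Detection alone therefore does not settle the origin of the RNA. Itpr1, the inositol trisphosphate receptor that is abundant in Purkinje cells, had a scaled intensity of 66155 on the contralateral array, 63490 on the ipsilateral and 56633 on the control array. Cbln1, the synapse organiser made by granule cells, had 41383, 41873 and 44298 in this order. The median log2 ratios of the Purkinje cell markers were 0.14 contralateral to control and 0.12 ipsilateral to control, and those of the granule cell markers 0.026 and 0.039.

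Herpud1 and Dnajb9 had the highest contralateral to control ratios of the ER folding and quality control genes, while Hspa5, Pdia4 and Sdf2l1 differed from control by less than the scanner error on both sides. Herpud1 encodes an ER membrane protein that organises the degradation of misfolded protein. Its scaled intensity was 2877 on the contralateral, 2734 on the ipsilateral and 2090 on the control array, so both sides of the MCAO group were above the control. The log2 ratio was 0.46 ± 0.20 (scanner error) contralateral to control, 0.39 ± 0.20 ipsilateral to control and 0.074 ± 0.20 between the sides. Of the measured genes, 96.2% had a lower contralateral to control ratio and 91.2% a lower ipsilateral to control ratio; among the 1124 genes in the same decile of signal the shares were 98.1% and 97.6%. Its ipsilateral to control ratio was -0.15 without any scaling of the arrays and above 0 in the other 9 alternatives. Those for outlier spots and the choice of probes could not move it, since Herpud1 had 1 probe with 1 spot.

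Dnajb9, also called ERdj4, is an ER co-chaperone that hands substrates to BiP and restrains IRE1. Its scaled intensity was 785.3 contralateral, 618.7 ipsilateral and 596.0 in the control, and only the contralateral array stood apart. The log2 ratios were 0.40 ± 0.20 contralateral to control, 0.054 ± 0.20 ipsilateral to control and 0.34 ± 0.20 contralateral to ipsilateral. The last was above that of 98.2% of measured genes and of 99.6% of the 1125 in its decile of signal. It was positive under all 10 alternatives, from 0.32 to 0.73, but those for outlier spots and the choice of probes could not move it. Herpud1 and Dnajb9, like Pdia4, Ddit3, Xbp1 and Trib3, were each read by 1 spot, so no spread between spots stands beside their values.

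Hspa5 encodes BiP, the main chaperone of the ER lumen, which also holds the stress sensors inactive. Its scaled intensity, the mean of 9 spots, was 7543 contralateral, 7360 ipsilateral and 7613 in the control, close to level over the 3 arrays. The log2 ratios were -0.013 and -0.049 against control, with an SD between spots of 0.026 and 0.028. Pdia4, a protein disulfide isomerase that forms and rearranges disulfide bonds, had scaled intensities of 85.2, 84.3 and 80.3 in the same order, far below the 75th percentile of the arrays. Sdf2l1, a BiP-associated factor of the ER chaperone complex, had 1576, 1766 and 1722, lowest on the contralateral array by a log2 ratio of -0.13 to control and -0.16 to the ipsilateral side. The latter ratio was 0.22 without scaling and 0.0014 with spike-in scaling, where the contralateral array was not the lowest.

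**Figure D2:**
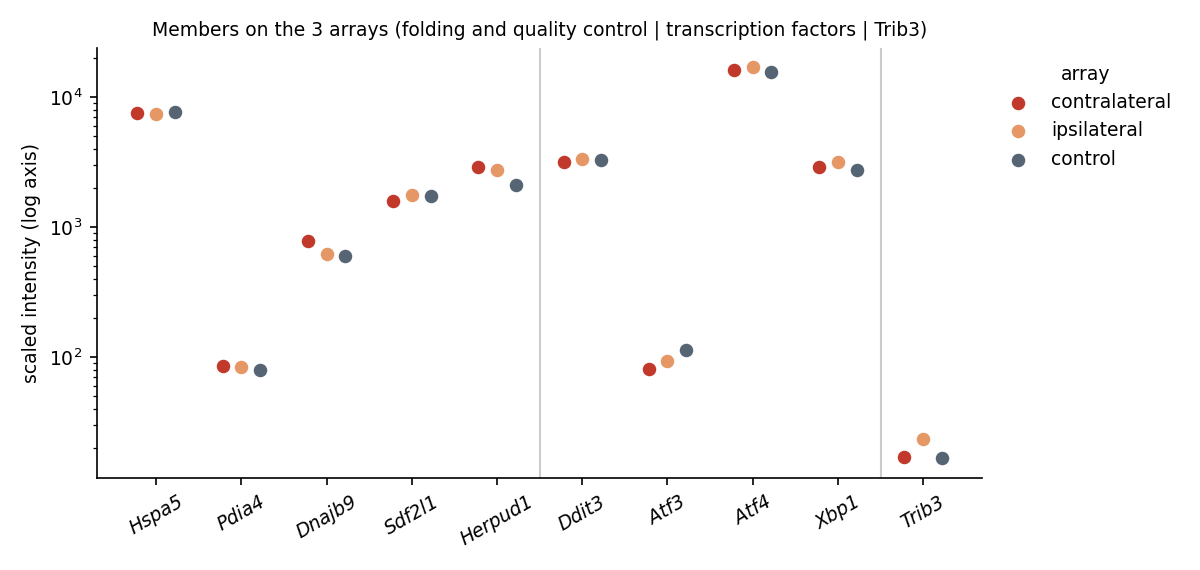
Scaled intensity (log axis) of the 10 genes on the contralateral, ipsilateral and control arrays; each point is 1 array, and only points of the same gene can be compared. Herpud1 is above its control value of 2090 on both MCAO arrays, Dnajb9 on the contralateral array (785.3 against 596.0), and Atf3 is below its control value of 114.0 on both.

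Of the stress transcription factors, Atf3 had the lowest ratios on both sides, and Ddit3, Atf4 and Xbp1 differed from control by less than the scanner error. Atf3, an early-response factor of the same stress pathway that is also known from injured neurons, had scaled intensities of 80.9 contralateral, 93.7 ipsilateral and 114.0 in the control. Its log2 ratios were -0.50 ± 0.21 contralateral to control and -0.28 ± 0.21 ipsilateral to control. The value of the 2 spots of its probe ran from -0.60 to -0.39 on the contralateral side. The contralateral to control ratio lay above that of 4.24% of measured genes. The Atf3 ratio was negative under all 10 alternatives on both sides, but those for outlier spots and the choice of probes could not move it. With normexp on median signals and an offset of 50 it was -0.25 contralateral and -0.021 ipsilateral, and with 50 added to the scaled signal alone -0.33 and -0.19.

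Ddit3 encodes CHOP, the factor tied to cell death under lasting ER stress. Its scaled intensity was 3177 contralateral, 3361 ipsilateral and 3250 in the control, a spread within the scanner error. Atf4, the effector of the PERK branch, had 16108, 16897 and 15609, as the mean of 10 spots. Its log2 ratios were 0.045 contralateral to control and 0.11 ipsilateral to control, with an SD between spots of 0.046 and 0.036. ATF4 is controlled largely at translation, which an array does not read. Xbp1, the target of IRE1, had 2882, 3152 and 2744, and log2 ratios of 0.070 and 0.20. The files name the Xbp1 probe by accession, so spliced and unspliced messenger RNA were not told apart.

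Trib3, a pseudokinase that CHOP and ATF4 induce and that restrains both, had a weak signal before scaling, 17.9 contralateral, 19.0 ipsilateral and 19.6 in the control. Its scaled intensities were 17.0, 23.4 and 16.7, so the ipsilateral array stood highest only after scaling. The log2 ratio was 0.49 ± 0.31 ipsilateral to control and -0.46 ± 0.31 contralateral to ipsilateral. The negative control spots, which match no rat gene, had a median log2 ratio of 0.52 ipsilateral to control and -0.46 contralateral to ipsilateral after the same scaling. With 50 added to the scaled signal, the Trib3 ratio ipsilateral to control was 0.14.

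None of the 10 genes passed a log2 ratio of 1 or -1, the fold used in the study's methods, in any of the 3 comparisons. Contralateral to control this was 0 of 10 against 7.97% of the 16648 genes and 1.46% of the 11246 measured genes. Ipsilateral to control it was 0 of 10 against 11.0% and 2.11%, and contralateral to ipsilateral 0 of 10 against 11.2% and 1.18%. At such shares a count of 0 among 10 genes lies near the background of measured genes and says nothing particular of these genes.

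**Figure D3:**
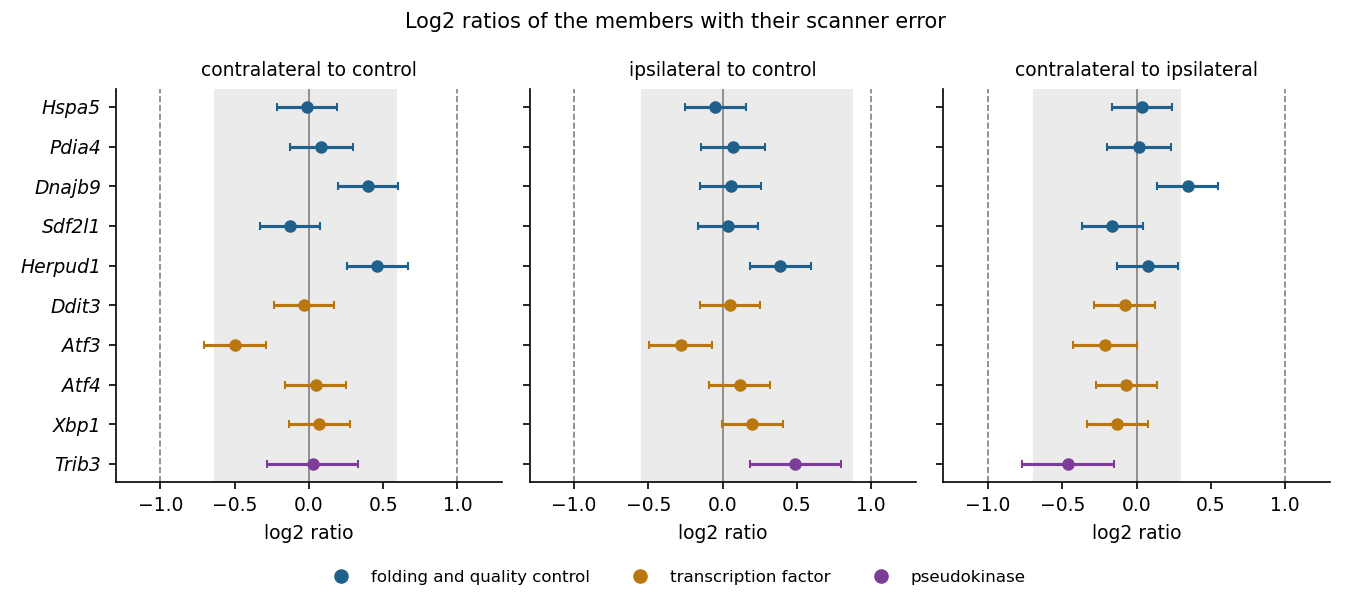
Log2 ratio of each gene in the 3 comparisons (points) with its scanner error (bars); the grey band holds the central 95% of the 11246 measured genes and the dashed lines mark -1 and 1. All points lie between the dashed lines, and Dnajb9 at 0.34 contralateral to ipsilateral lies to the right of the grey band.

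Set side by side, the ER folding and quality control genes and the stress transcription factors had overlapping ratios in every comparison. Contralateral to control, the 5 folding and quality control genes ran from -0.13 (Sdf2l1) to 0.46 (Herpud1) with a median of 0.084, and the 4 transcription factors from -0.50 (Atf3) to 0.070 (Xbp1) with a median of 0.0064. The median over measured genes was 0.0078, and the difference of the group medians was 0.077, which was 0.16 with quantile normalization and 0.017 with normexp. Ipsilateral to control, the medians were 0.054 and 0.081, beside 0.015 for measured genes, and their difference was -0.027, which turned to 0.034 with quantile normalization and 0.028 with normexp. Contralateral to ipsilateral, the medians were 0.036 and -0.11. The folding and quality control genes ran there from -0.16 (Sdf2l1) to 0.34 (Dnajb9), with 4 of 5 above 0. The transcription factors ran from -0.21 (Atf3) to -0.069 (Atf4), all 4 below 0, so only Sdf2l1 overlapped with them. Of all measured genes, 49.5% were above 0 in this comparison. Only 1 gene of each group passed its scanner error, Dnajb9 and, narrowly, Atf3 (-0.2133 against 0.2130). Without scaling all 4 transcription factors were above 0, from 0.17 (Atf3) to 0.31 (Atf4), and with spike-in scaling their median was 0.060. The difference of the group medians was 0.14 under the main processing. An alternative that shifts a whole array cannot move these differences, which rest on 1 array per group and were not tested. Without Herpud1, which is a degradation factor, the 4 chaperones and oxidoreductases had medians of 0.035, 0.045 and 0.025 in the same order of comparisons. Without scaling and with spike-in scaling, all genes of an array shifted alike and the signs of the medians turned in part. The transcription factor median contralateral to control was also below 0 with quantile normalization, -0.032, and with deposited values, -0.037, and the folding and quality control median ipsilateral to control was -0.0034 with deposited values. Relative to the median of all measured genes, the folding and quality control median ran over the 11 settings from -0.0092 to 0.12 contralateral to control, from 0.0067 to 0.075 ipsilateral to control and from 0.029 to 0.092 between the sides. That of the transcription factors ran from -0.040 to 5.1e-05, from -0.021 to 0.069 and from -0.12 to -0.046. Settings that shift a whole array cannot move these relative values, so the ranges rest mainly on quantile normalization, normexp and the addition of 50.

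**Figure D4:**
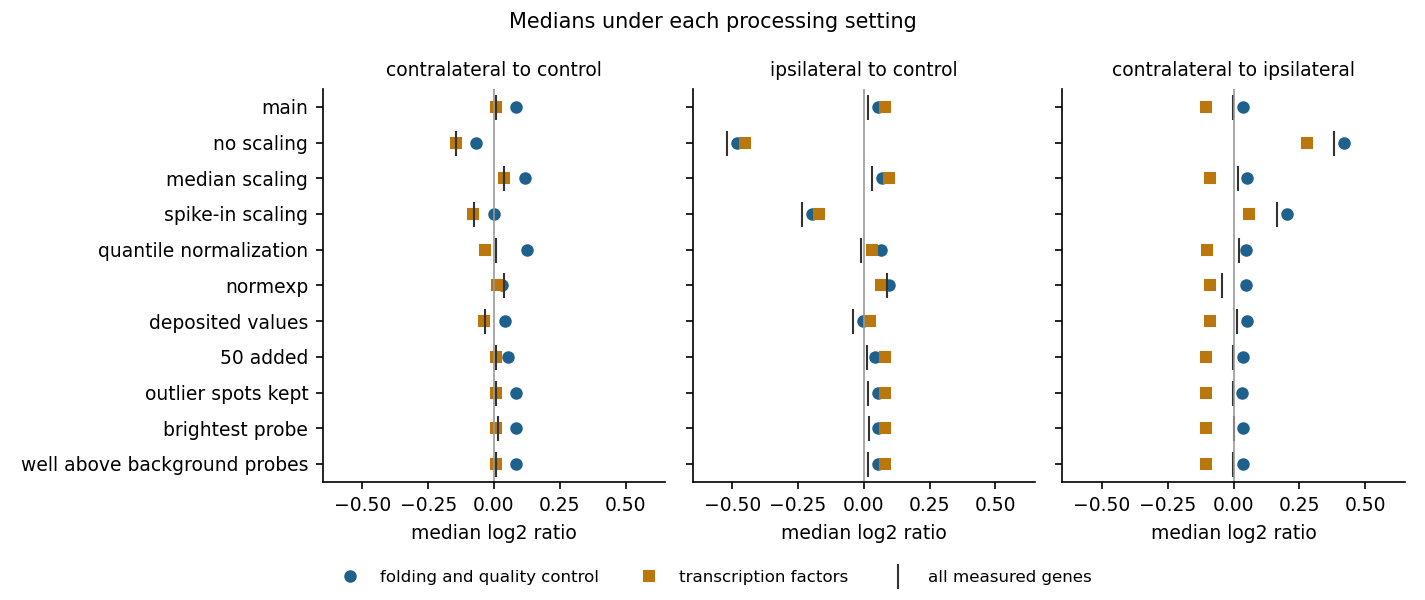
Median log2 ratio of the 5 folding and quality control genes (circles), the 4 transcription factors (squares) and all measured genes (ticks) under the main processing and 10 alternatives, 1 panel per comparison. Without scaling the medians of both groups move with that of all measured genes, as in the ipsilateral to control panel, where they reach -0.48 and -0.45.

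Of 73 other genes of the pathway, 69 were on the array and 61 were measured. Contralateral to control, 25 of the 61 had a ratio above 0 and 36 below 0, with a median of -0.049, and ipsilateral to control 29 and 32, with a median of -0.015. The signs of these medians turned with normexp, to 0.010 and 0.046, and that of the ipsilateral one with scaling to the array median, to 0.00063. Of all measured genes, 51.8% were above 0 contralateral to control and 53.4% ipsilateral to control, which stands beside the counts of each role below. None of the 61 passed a log2 ratio of 1 or -1 in any comparison, near the 1.46%, 2.11% and 1.18% of measured genes that did. Those not found by symbol included Manf, Derl2 and Tnfrsf10b, and Ern1, Eif2ak3, Txndc5, Ero1b, Edem1, Kdelr3, Psat1 and Stc2 had a probe that was not well above background on at least 1 array.

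Of the sensors and their activators, 0 of 4 measured genes had a ratio above 0 on either side, with medians of -0.084 contralateral and -0.22 ipsilateral. These 4 leave out the sensors IRE1 (Ern1) and PERK (Eif2ak3), which were not measured by the rule used here. Ern1, with a signal near background, had 0.23 ± 0.47 contralateral and 0.13 ± 0.56 ipsilateral to control. The probe of Eif2ak3 that was well above background on all arrays had -0.059 and 0.037. Mbtps1, the protease that makes the first cut in ATF6, had the highest contralateral to control ratio of the 4, -0.073, and Mbtps2, which makes the following cut, the lowest, -0.30, which was 0.065 with normexp. Ipsilateral to control, Mbtps2 was 0.24 with normexp, and contralateral to control, Mbtps1 was 0.0027 with the brightest probe, so the count of 0 of 4 did not hold with every alternative. The probes of Mbtps2 disagreed ipsilateral to control, with 0.10 and -0.56. Of the other ER chaperones and oxidoreductases, 4 of 14 were above 0 contralateral to control, with a median of -0.086, and 5 of 14 ipsilateral to control, with a median of -0.11. Hsp90b1, the ER member of the HSP90 family, had scaled intensities of 1809 contralateral, 1703 ipsilateral and 2117 in the control, and log2 ratios of -0.23 ± 0.20 and -0.31 ± 0.20. Ero1a, the oxidase that recharges protein disulfide isomerases, had the highest contralateral to control ratio of these, 0.26 ± 0.20. Its ipsilateral to control ratio was 0.19, and turned negative without scaling (-0.35) and with spike-in scaling.

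In ER-associated degradation, the process that Herpud1 serves, 6 of 12 measured genes were above 0 contralateral to control and 7 of 12 ipsilateral to control, with medians of 0.00063 and 0.066. Derl3, a channel component, had the highest contralateral to control ratio, 0.30 ± 0.23, and Ube2j1, a ubiquitin-conjugating enzyme, the lowest, -0.22 ± 0.21, which was -0.076 with normexp and -0.15 with 50 added. Of the translocation and retrieval genes, 1 of 8 was above 0 contralateral to control and 2 of 8 ipsilateral to control, with medians of -0.078 and -0.049. Kdelr2, a receptor that returns ER proteins from the Golgi, had the highest contralateral to control ratio of these, 0.027. It was -0.017 with deposited values and kept its sign in 7 of the 10 alternatives, so the count of 1 of 8 did not hold with every alternative. Wfs1, an ER membrane protein that limits ER stress, had the lowest contralateral to control ratio, -0.41 ± 0.22, which was -0.13 with normexp and -0.20 with 50 added. Its ratio ipsilateral to control was 0.020, and kept its sign in 6 of the 10 alternatives, with 0.29 with normexp and -0.51 without scaling. Among the kinases of the integrated stress response, eIF2 alpha itself (Eif2s1) and the regulatory subunits of its phosphatase, 3 of 6 were above 0 on each side, with medians of 0.023 and 0.00091. Eif2ak1, the heme-regulated kinase, had 0.12 contralateral to control, and Eif2ak4, the kinase that senses amino acid shortage, had -0.30 ± 0.20.

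The targets of ATF4 and CHOP had medians of 0.077 contralateral to control and 0.11 ipsilateral to control, with 11 and 12 of 17 measured genes above 0. Nupr1, a small stress-induced chromatin protein, had scaled intensities of 528.7 contralateral, 668.4 ipsilateral and 354.1 in the control. Its log2 ratios were 0.58 ± 0.20 and 0.92 ± 0.20, higher than those of all 10 genes above, and its 2 probes gave 0.93 and 0.90 ipsilateral to control. The ipsilateral ratio was 0.38 without scaling and 0.67 with spike-in scaling. Slc7a11, the cystine transporter, had the lowest contralateral to control ratio of the targets, -0.31 ± 0.24. Its 2 probes gave -0.24 and -0.75 ipsilateral to control, so they differ in size. The mean of both probes there was -0.49, and it was 0.018 with normexp and -0.22 with 50 added.

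**Figure D5:**
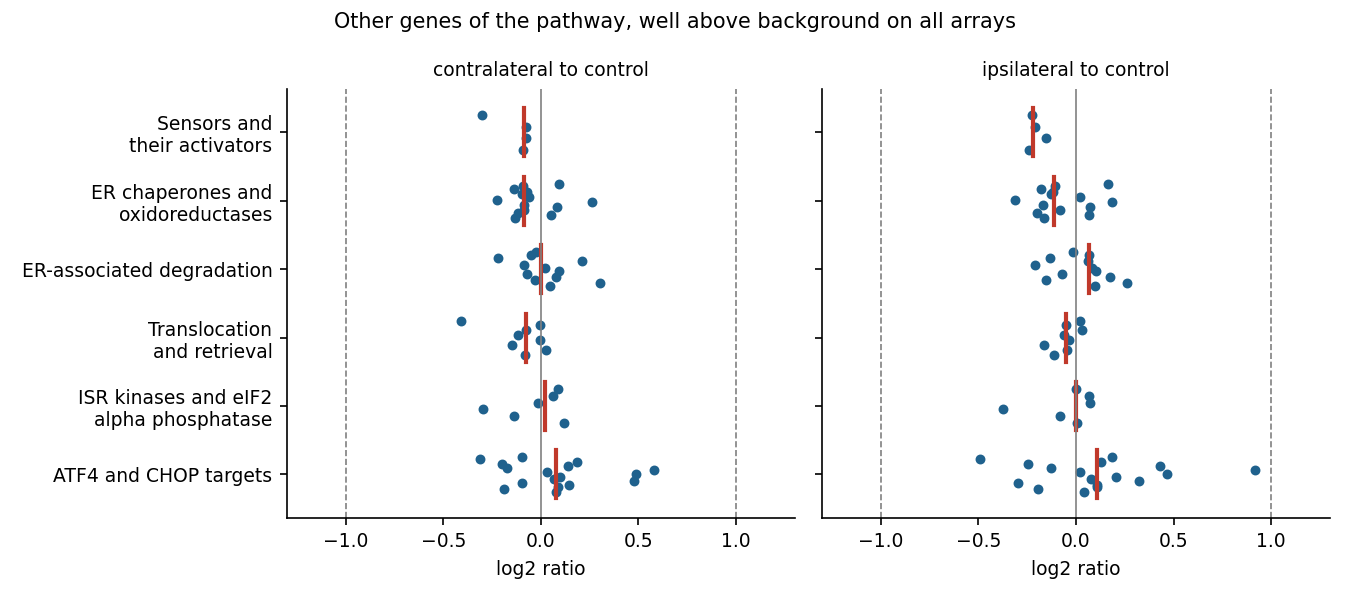
Log2 ratios to control of the 61 measured pathway genes by role (points), with the median of each role (red bar); the left panel is the contralateral and the right panel the ipsilateral side, and the dashed lines mark -1 and 1. All points lie between the dashed lines, and the highest ipsilateral point is Nupr1 at 0.92.

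Markers of other tissue differed between the arrays far more than the ER genes. Of 9 choroid plexus markers, 7 were measured, and on each array at least 1 of the 2 probes of Prlr was not well above background. The summed scaled intensity of all 9 was 10820 contralateral, 77064 ipsilateral and 34192 in the control. The brightest marker was Ttr, which encodes the transport protein transthyretin and had 9910, 75329 and 32961. Nearly all of the sum came from Ttr, so it describes mainly 1 gene. The median log2 ratio of the 7 was -0.67 contralateral to control, 0.66 ipsilateral to control and -1.21 contralateral to ipsilateral. Over the 10 alternatives these medians kept their sign and ran from -0.83 to -0.39, from 0.13 to 0.68 and from -1.21 to -0.83. Contralateral to control all 7 were below 0, but Otx2 was only at -0.025. Ipsilateral to control 6 were above 0 and Clic6 was at -0.31. Fewer cells of a type and less RNA per cell cannot be told apart in such samples. All 6 markers of leptomeninges and fibroblasts were measured, with summed scaled intensities of 6429, 8883 and 11674, medians of -0.87, -0.46 and -0.33, and Col1a2, a collagen chain, as the brightest at 4193, 5853 and 7558. Both tissues secrete much protein; beside them, the folding and quality control genes had medians of 0.084, 0.054 and 0.036, and the part of these tissues in the ER gene values was not tested.

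Most other marker lists had medians nearer to 0. The medians contralateral to control and ipsilateral to control were -0.072 and -0.0018 for Bergmann glia and astrocytes, with members that went both ways, -0.035 and 0.035 for oligodendrocytes, 0.11 and 0.081 for microglia (Cx3cr1), and -0.19 and -0.10 for endothelium (Cldn5). Aqp4, the water channel of astrocytes and the brightest gene of its list, had log2 ratios of -0.55 and -0.45. Gfap, an astrocyte filament protein, had -0.73 and -0.66, and Gdf10, a Bergmann glia marker, had 0.39 and 0.27; both were singled out after their values were seen. Cx3cr1, the fractalkine receptor of microglia, had a scaled intensity of 2345 contralateral, 3311 ipsilateral and 1370 in the control, and log2 ratios to control of 0.78 and 1.27. The microglia list did not move as one. Aif1 had -0.29 and -0.097, Csf1r -0.051 and 0.083, and Tmem119 0.28 and 0.079, all named after their values were seen. Of the forebrain neuron and blood cell markers, 2 of 4 each were measured, with Neurod6 and S100a9 the brightest. Their medians were 0.89 and -0.076 for the forebrain list, against 0.37 and 0.30 over all 4 forebrain markers, and 0.37 and 0.42 for the blood list, against -0.44 and -0.37 over all 4 blood cell markers. The 2 measured blood cell genes disagreed ipsilateral to control, with -0.19 for S100a8 and 1.04 for S100a9. The 2 measured forebrain genes disagreed contralateral to control, with -0.054 for Neurod6 and 1.83 for Nrgn, a postsynaptic calmodulin-binding protein that was singled out after its values were seen.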

How the data were processed

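RNA of 3 pools of 4 rats was read on 3 arrays. The authors deposited scanner output of Agilent Feature Extraction 12.1.0.3, in which the processed signal of each spot is a background-subtracted fluorescence intensity, and a value table in which that intensity is multiplied by 1 factor per array (1.12, 1.45 and 1.04 for contralateral, ipsilateral and control; medians 139.4, 139.6 and 146.9); the methods say that values were normalized against the chip's control samples, but not whether the factors come from that step. Of 58717 spots that are not controls, 42470, 43028 and 43283 were well above background and 0 saturated. The log2 intensity was shifted to a common 75th percentile, 759 spots that carried an outlier flag were not used, and spots of a probe, then probes of a gene, were averaged. Of 39957 accessions, 17616 matched 1 symbol in the RefSeq table of GRCr8. With 1 array per group there was no test; the number of arrays limits the precision, and the error is the mean relative error that the scanner software gives each spot.

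The members and lists were chosen with earlier results of these data known. The text names all members, of each pathway role the measured genes with the highest and lowest contralateral to control ratio, any measured pathway gene past a log2 ratio of 1 or -1, and the brightest gene of each marker list. Prlr, Otx2, Clic6, Nrgn, Gfap, Gdf10, Aif1, Csf1r, Tmem119, S100a8, Eif2s1 and genes without a measured value are named outside that rule. Not every gene that the rule names is reported here. Marker lists were those of Purkinje cells, granule cells, Bergmann glia and astrocytes, oligodendrocytes, microglia, endothelium, choroid plexus, leptomeninges and fibroblasts, forebrain neurons and blood cells. The ratios and counts of the members, their medians, those of the pathway list and its named genes, and the choroid plexus median were recomputed under 10 alternatives; the other marker lists and the motif search were not. For the scaling these were none, the array median, 8 spike-in probes and quantiles; for the signal, normexp on median signals (offset 50), the authors' value table and an addition of 50 after scaling; for the probes, inclusion of outlier spots, the brightest probe alone and a filter for signals well above background. The averaging and the motif search were tested on simulated data. Quantile and normexp values came from limma 3.58.1 (R 4.3.3), and all others from Python 3.11.15 using numpy 2.4.6 and pandas 2.3.3; plots were drawn in matplotlib 3.10.9.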

Additional observations from a re-analysis of the deposited data

Results flagged for a closer look

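Sdf2l1 and Ddit3 had log2 ratios to control of opposite sign on the 2 sides. For Sdf2l1 the contralateral minus ipsilateral difference was -0.16 ± 0.20 (scanner error), with an SD of 0.019 between its 2 spots. A lower one was found for 16.7% of measured genes and for 3.02% of the genes in its decile of signal. For Ddit3, read by 1 spot, the difference was -0.081 ± 0.20. Without scaling these differences turned to 0.22 for Sdf2l1 and 0.30 for Ddit3, and with spike-in scaling to 0.0014 and 0.084. The opposite signs were lost in 3 of the 10 alternatives, which were no scaling, spike-in scaling and the deposited values. The alternatives for outlier spots and the choice of probes could not move either gene. With the deposited values the ratios to control were -0.17 contralateral and -0.021 ipsilateral for Sdf2l1, and -0.076 and -0.0089 for Ddit3. Each side had 1 array, and the differences were not tested.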

How the results depend on the processing

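Of 300 ratios of the 10 genes under the 10 alternatives, 266 moved by less than the scanner error and 34 by more, 20 of these without scaling and 9 with spike-in scaling. The brightest probe alone and the filter for signals well above background, 30 ratios each, could not move any gene. Each gene had only 1 probe, and it passed that filter. Inclusion of outlier spots could move only Hspa5. No ratio of a gene passed the fold under the main processing, so none could lose it. Without scaling, the median of all measured genes moved by -0.15 contralateral to control, -0.53 ipsilateral to control and 0.38 contralateral to ipsilateral, and with spike-in scaling by -0.084, -0.25 and 0.17. Ipsilateral to control, the median of the folding and quality control genes was -0.48 without scaling and -0.20 with spike-in scaling, that of the transcription factors -0.45 and -0.17, and that of the measured pathway genes -0.55 and -0.26. Contralateral to ipsilateral without scaling, these medians were 0.42, 0.28 and 0.40. These shifts follow from the construction of a scaling, which moves all genes of an array alike. Relative to the median of all measured genes, over all 11 settings, Herpud1 contralateral to control ran from 0.39 to 0.45, Dnajb9 from 0.36 to 0.40 and Atf3 from -0.51 to -0.29. Settings that shift a whole array, the deposited values among them, give the same relative value by construction. Only quantile normalization, normexp and the addition of 50 could change these genes relative to others, so the ranges are not 11 separate checks. The count of the 10 genes past the fold was 0 under all alternatives; that of measured pathway genes ipsilateral to control was 1 without scaling, Slc7a11 at -1.03, a gene with 1 dim probe whose ratio was 0.018 with normexp and -0.22 with 50 added. The alternatives for the pathway and marker lists were added after seeing the data. Signal over background limits Trib3, Atf3 and Pdia4 most. No paired analysis was possible because each group has 1 array.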
